A study of Mus musculus with 4 samples.

Results

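A set of 9 genes of mitochondrial calcium handling was described in RNA sequencing libraries of neural stem cells sorted from adult mice. They were chosen by name, as the annotated genes Mcu, Smdt1, Micu2, Micu3, Vdac1, Vdac2, Vdac3, Letm1 and Slc8b1, with no threshold on a measured value, although results of these data were known. All 9 were found among the 32564 genes of the transcript index, through 45 transcripts, of which 38 received an estimated count in at least 1 library. Each gene's level is the sum of its transcripts in TPM, a unit of transcript abundance that divides the reads of a transcript by its length and scales every library to the same total.

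Calcium enters mitochondria by crossing the outer membrane through the voltage-dependent anion channels VDAC1, VDAC2 and VDAC3, and then the inner membrane through the uniporter. The uniporter's pore is built from MCU and needs the small membrane protein EMRE, the product of Smdt1, to conduct calcium in animal cells. The MICU proteins sit on the pore in the intermembrane space, bind calcium through EF hands and set the calcium level at which the channel opens. NCLX, the product of Slc8b1, returns calcium to the cytosol in exchange for sodium, and LETM1 is an inner membrane ion exchanger for which both proton-potassium and proton-calcium exchange have been described. Calcium that reaches the matrix is known to raise the activity of several dehydrogenases of the citric acid cycle.

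The 4 libraries form 1 group. Per the labels, the group holds activated neural stem cells positive for EGFR, Prom1 and GFAP, sorted by flow cytometry from untreated gfap:GFP animals of mixed CD1/C57BL/6 background at 3 months of age. The reporter allele is shared by all of them, and it marks whichever cells use the Gfap promoter, astrocytes among them. The design text of the series speaks instead of quiescent cells collected 3 days after aCSF or miR204 antagomers entered the ventricle, and no sample label names either agent. The labels were followed, no groups were compared, and if the design text applied, the spread given below could also hold a treatment difference. Whether each library had its own animal is not stated, so the SDs and p-values below describe the spread among 4 samples, which may be technical.

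The libraries held 16978938 to 23727664 estimated counts. No pair of libraries held the same values, and each was counted as 1 sample. The 3 markers named for the sort were present, with Gfap at 107 to 227 TPM, Egfr at 71.6 to 122 TPM and Prom1 at 14.6 to 31.7 TPM. Markers of other cells were present too. The 6 oligodendrocyte markers summed to 2500 to 4264 TPM, the 6 neuron markers to 1039 to 1284 TPM, the 5 ependymal markers to 512 to 1036 TPM and the 6 microglia markers to 96.6 to 334 TPM. Erythroid markers, mostly haemoglobin genes, ranged most, at 59.9 to 2342 TPM. The endothelial and mural list stayed at 23.9 to 43.3 TPM, most of it Pdgfrb at 19.8 to 38.8 TPM. Of the rest of that list, Pecam1 had 3.54 to 4.34 TPM. Rgs5 and Cldn5 had means of 0.20 and 0.12 TPM, and Cdh5 was at 0 in all libraries. In such bulk samples, fewer cells of a type and less RNA per cell cannot be told apart.

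By TPM, Smdt1 was the most abundant of the 9 transcripts and Micu3 the least. The top rank of Smdt1 depends on division by length. Smdt1 had 2629, 2314, 1785 and 2681 estimated counts in libraries 1 to 4, fewer than each VDAC gene in every library. The order of mean levels was Smdt1, Vdac3, Vdac2, Vdac1, Letm1, Micu2, Slc8b1, Mcu and Micu3, spanning 318 ± 7.23 TPM for Smdt1 to 7.12 ± 2.03 TPM for Micu3 (SD, n = 4). The place of Letm1 above Micu2 depends on the transcripts counted. With protein-coding transcripts alone, the mean log2 ratio over Mcu was 1.37 for Letm1 and 2.04 for Micu2. Without transcripts of incomplete annotation it was 1.57 and 1.955. Smdt1 lay above every other member in every library, since its lowest library held 309 TPM and the highest value of any other member was 231 TPM for Vdac3. The 3 VDAC genes overlapped one another, as did Letm1 with Micu2, Micu2 with Slc8b1, and Mcu with Micu3. Slc8b1, at 23.9 to 44.8 TPM, did not overlap Mcu, at 6.99 to 14.1 TPM. All 9 members were above 1 TPM in the limma test on log2(TPM + 1), a call made for 62.8% of the 19914 genes tested, while 23.2% were called below it. The smallest margin belonged to Micu3, whose log2(TPM + 1) lay 1.98 above the value at 1 TPM (SE 0.23, adjusted p = 0.00024 by limma). The members' median was 63.0 TPM, against 8.34 TPM over all genes tested. Together the 9 genes made up 0.0975 to 0.111% of all TPM of a library.

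**Figure D1:**
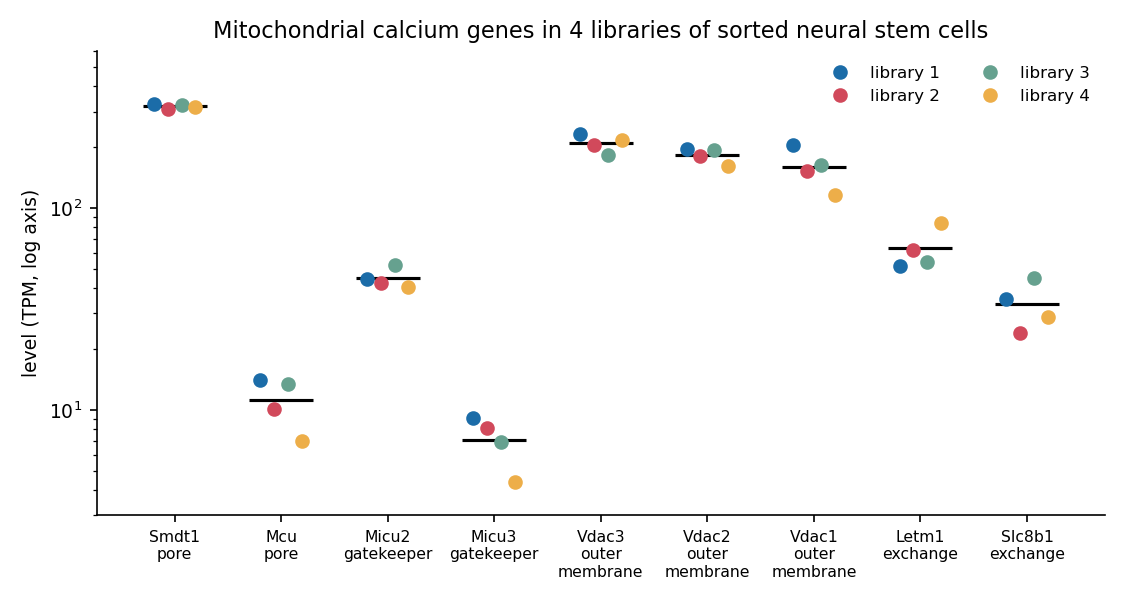
Level of each member in TPM on a log axis, with 1 point per library and a bar at the mean of the 4 libraries, grouped by role. Smdt1 stands highest with its 4 points between 309 and 326 TPM, and Mcu and Micu3 stand lowest.

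Mcu encodes the pore subunit itself, and its transcript was scarce beside that of its partner. The gene (ENSMUSG00000009647) lies on the minus strand at chr10:59446984-59616692 of GRCm38. Its level was 14.1, 10.1, 13.4 and 6.99 TPM in libraries 1 to 4, from 598, 385, 355 and 303 estimated counts, with a mean of 11.1 ± 3.29 TPM (SD, n = 4). Libraries 1 and 3 were high and library 4 was low, a range of 2.02-fold. Mcu still lay above 54.2% of all genes tested. Nearly all of it, 94.3 ± 7.11% of TPM, came from Mcu-202, which spans 8 exons. That transcript carries the DIME motif, the stretch at the mouth of the pore that makes it selective for calcium. It is shown here, from GENCODE M21, because it encodes the selectivity filter of the channel, with the motif's codons in capitals.
Mcu-202: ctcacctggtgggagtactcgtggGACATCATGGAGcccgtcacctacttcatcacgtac

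Smdt1 (ENSMUSG00000022452, plus strand, chr15:82338959-82349091), the gene of the EMRE subunit that Mcu needs for conduction, had 326, 309, 321 and 316 TPM in libraries 1 to 4. These values lay closer together than those of any other member, with a mean of 318 ± 7.23 TPM (SD, n = 4). The SD of its log2 level was 0.033, against a median of 0.158 for the 712 genes within 2-fold of its level, and 0.562% of those genes had a smaller one. Smdt1 exceeded Mcu in 4 of 4 libraries, by 27.1-fold on the scale of TPM + 1, with single libraries between 21.6-fold and 39.6-fold. The within-library log2 ratio was 4.76 ± 0.40 (SD, n = 4, exact two-sided sign-flip p = 0.125, the smallest that 4 libraries allow). In CPM, a unit scaled to depth but not divided by length, the log2 ratio was 2.49. The width of the range came from Mcu, because Smdt1 itself moved by 1.05-fold between its lowest and highest library.

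Smdt1 RNA was divided between a coding and a decay form. Smdt1-201, which encodes the full protein, took 79.6 ± 2.27% of the gene's TPM, and Smdt1-204, annotated as a target of nonsense-mediated decay, took 17.6 ± 2.69% (SD, n = 4). In TPM, Smdt1-204 alone reached 65.5, 60.6, 46.5 and 51.4 in libraries 1 to 4, above the whole of Mcu in each. By estimated counts, not divided by length, it had 450, 385, 221 and 367, against 598, 385, 355 and 303 for Mcu. On that scale it was clearly above Mcu only in library 4. The forms differ by a stretch of 49 bases inside the coding region, a length that is no multiple of 3, and the annotated coding length without the stop codon is 171 bases in Smdt1-204 and 321 bases in Smdt1-201. Capitals mark the bases that Smdt1-204 lacks, with 20 bases on either side.
Smdt1-204: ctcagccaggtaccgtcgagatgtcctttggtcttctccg
Smdt1-201: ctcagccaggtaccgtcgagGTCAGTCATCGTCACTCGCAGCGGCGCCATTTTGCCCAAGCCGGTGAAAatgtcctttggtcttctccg

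The gatekeeper genes differed from each other more than any other members of 1 role apart from the pore. MICU2 helps to hold the channel shut at low calcium, whereas MICU3 is a relative known mainly from neurons, where it favours uptake. Micu2 (ENSMUSG00000021973, minus strand, chr14:57916261-57999262) had 44.3, 42.6, 52.1 and 40.5 TPM in libraries 1 to 4, a mean of 44.9 ± 5.03 TPM (SD, n = 4). Micu3 (ENSMUSG00000039478, plus strand, chr8:40307458-40386308) had 9.06, 8.13, 6.93 and 4.37 TPM, a mean of 7.12 ± 2.03 TPM (SD, n = 4), from 149 to 300 estimated counts. The values of both genes did not overlap. Micu2 exceeded Micu3 by 5.77-fold, with a log2 ratio of 2.53 ± 0.38 that was positive in 4 of 4 libraries (SD, n = 4, exact p = 0.125).

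Micu2 also exceeded the pore gene, by 3.88-fold over Mcu (3.00 to 5.20-fold in single libraries, higher in 4 of 4). Micu3 was lower than Mcu in 4 of 4 libraries, with a log2 ratio of -0.57 (SE 0.36), but the limma fit over all genes did not call it (adjusted p = 0.13). That fit called 7 of the other 8 members higher than Mcu, against 37.2% of genes, and 46.4% of genes lower. All comparisons in it share the same 4 Mcu values, and its variance was pooled completely over genes. Its p-values can thus be too small for genes that spread widely and too large for those that spread little. For Micu3 the SE of the fit, 0.36, was larger than the SD of its own log2 ratios, 0.24. The p-values are not to be read alone, and folds and library counts are given with the calls. Micu3's result turned on the transcripts included, since it was called lower than Mcu when only each gene's most abundant transcript was used (log2 ratio -0.76, adjusted p = 0.043 by limma).

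Micu2 had 1 transcript in the index, Micu2-201. Micu3 was carried to 80.8 ± 6.48% by Micu3-201, a transcript of 15 exons, and to 16.1 ± 7.13% by Micu3-203, whose annotation begins inside the coding region (SD, n = 4). The share of Micu3-203 was highest in library 4, at 26.4%, where the gene's level was lowest, and 10.9 to 15.3% in the other 3 libraries. Its TPM barely moved, at 0.887 to 1.15, while that of Micu3-201 lay between 3.22 and 7.18.

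The 3 channels of the outer membrane were among the most abundant members and lay close to one another. Vdac3 (ENSMUSG00000008892, minus strand, chr8:22577075-22593813) had 231, 206, 183 and 218 TPM in libraries 1 to 4, a mean of 209 ± 20.8 TPM (SD, n = 4). Vdac2 (ENSMUSG00000021771, plus strand, chr14:21825238-21845879), which is known to hold the death effector BAK at the outer membrane, had 195, 180, 195 and 160 TPM, a mean of 182 ± 16.2 TPM. Vdac1 (ENSMUSG00000020402, plus strand, chr11:52360860-52389397), the form best known for binding hexokinase and for contacts with the IP3 receptor, had 205, 152, 163 and 116 TPM, a mean of 159 ± 36.6 TPM. The values of all 3 genes overlapped, and each lay above at least 95.7% of the genes tested.

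Within libraries the order of the channels was partly stable. Vdac3 exceeded Vdac1 in 4 of 4 libraries, by 1.34-fold (log2 ratio 0.42 ± 0.35, SD, n = 4, exact p = 0.125). Vdac3 exceeded Vdac2 in 3 of 4 libraries (log2 ratio 0.20 ± 0.22, exact p = 0.25), and Vdac1 exceeded Vdac2 in 1 of 4, library 1 (log2 ratio -0.22 ± 0.22, exact p = 0.25). As a share of the summed VDAC TPM, Vdac3 held 38.2 ± 4.32%, Vdac2 33.2 ± 2.17% and Vdac1 28.6 ± 3.82% (SD, n = 4). Library 4 stood apart, with 44.0% Vdac3 and 23.5% Vdac1. These differences depend on length correction: in CPM the mean log2 ratio of Vdac3 over Vdac1 was -0.012, and that of Vdac1 over Vdac2 was 0.084.

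The channels differed in their transcript forms. Vdac3 was 96.4 ± 1.56% Vdac3-201 (SD, n = 4), and Vdac3-202, at 3.10 ± 0.94%, encodes the same protein with 1 more codon. Vdac2 was split, with 52.7 ± 3.13% of TPM on Vdac2-201 and 43.3 ± 1.58% on Vdac2-209, whose coding region starts 12 codons later. Vdac1 was 78.9 ± 3.29% Vdac1-202 and 19.1 ± 3.23% Vdac1-201, which has 13 more codons at its start and is annotated with no untranslated bases on either end. By estimated counts, with no division by length, the longer transcripts took more: Vdac2-201 held 71.95% against 26.35% for Vdac2-209, and Vdac1-202 held 90.6% against 8.67% for Vdac1-201. The starts of the coding regions are shown for Vdac2 and Vdac1, and the site of the extra codon for Vdac3, because these are where the encoded channels differ. Capitals mark the coding bases that lie before the start codon of the other form in Vdac2-201 and Vdac1-201, and the extra codon in Vdac3-202. The 3 extra bases of Vdac3-202 stand beside an identical triplet, so their exact place is not unique.
Vdac2-201: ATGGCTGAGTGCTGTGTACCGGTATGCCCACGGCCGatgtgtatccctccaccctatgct
Vdac2-209: atgtgtatccctccaccctatgct
Vdac1-201: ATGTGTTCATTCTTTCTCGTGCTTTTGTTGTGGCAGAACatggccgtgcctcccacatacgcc
Vdac1-202: atggccgtgcctcccacatacgcc
Vdac3-202: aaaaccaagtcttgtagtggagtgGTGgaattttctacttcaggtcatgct
Vdac3-201: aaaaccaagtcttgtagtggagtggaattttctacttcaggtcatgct

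The exchange genes lay between the uniporter pore gene and the outer membrane channels. Letm1 (ENSMUSG00000005299, minus strand, chr5:33739673-33782817) had 51.7, 61.7, 54.2 and 84.4 TPM in libraries 1 to 4, a mean of 63.0 ± 14.9 TPM (SD, n = 4). Library 4 was the highest, the reverse of Mcu, Micu2, Micu3, Vdac1 and Vdac2, which were all lowest there. Slc8b1 (ENSMUSG00000032754, plus strand, chr5:120511168-120534024) had 35.6, 23.9, 44.8 and 28.9 TPM, a mean of 33.3 ± 9.02 TPM, with library 3 high and library 2 low. Relative to Mcu, Letm1 was 5.34-fold higher, with libraries between 3.49-fold and 10.7-fold, and Slc8b1 was 2.84-fold higher, with libraries between 2.25-fold and 3.75-fold. Both were higher in 4 of 4 libraries. The log2 ratio of Letm1 over Mcu, 2.42 in all, was 1.37 with protein-coding transcripts, 1.37 with the most abundant transcript and 1.57 without incomplete ones, and that of Slc8b1 over Mcu was 0.93 with the most abundant transcript.

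Letm1 exceeded Slc8b1 by 1.88-fold, in 4 of 4 libraries (log2 ratio 0.91 ± 0.61, SD, n = 4, exact p = 0.125). The size of this difference depended on which transcripts were counted. Letm1-205, a fragment of 642 bases annotated as a target of nonsense-mediated decay with an incomplete start, took 45.0 ± 1.69% of the gene's TPM but 8.36% of its estimated counts. Letm1-201, of 5272 bases, which encodes the full protein, took 44.6 ± 4.20% of TPM and 86.9% of counts. In TPM, Letm1-205 stood at 23.9, 27.2, 23.4 and 39.4 in libraries 1 to 4, and Letm1-201 at 23.4, 24.2, 26.8 and 37.4. Both were highest in library 4. The mean log2 ratio of Letm1 over Slc8b1 was 0.12 without transcripts of incomplete annotation, Letm1-205 among them, and -0.20 with protein-coding transcripts alone, a setting that also drops other forms.

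The decay fragment of Letm1 leaves the coding sequence after a stretch that it shares with the full transcript. Its last coding bases and stop codon are set beside the same place in Letm1-201, because the forms part there. Capitals mark the 4 bases of Letm1-205 that are not in Letm1-201, and they hold the stop codon.
Letm1-205: gaccctggggttgacgagccgtgaGTAA
Letm1-201: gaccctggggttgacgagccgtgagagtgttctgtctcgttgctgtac

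Slc8b1 also came in 2 main forms. Slc8b1-201, of 16 exons, took 62.7 ± 8.48% of TPM, and Slc8b1-202, of 14 exons, took 29.0 ± 4.71% (SD, n = 4). The share of Slc8b1-201 was 72.5% in library 3, where the gene was highest, and 54.8% in library 2, where it was lowest. In TPM, Slc8b1-202 ranged from 8.28 to 10.7 and Slc8b1-201 from 13.1 to 32.4. Slc8b1-202 lacks 149 bases toward the end of the coding region, a length that is no multiple of 3, and its coding length is 1656 bases, against 1755 bases in Slc8b1-201. The region is shown with the skipped exons in capitals and 24 bases on either side.
Slc8b1-202: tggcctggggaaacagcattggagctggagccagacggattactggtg
Slc8b1-201: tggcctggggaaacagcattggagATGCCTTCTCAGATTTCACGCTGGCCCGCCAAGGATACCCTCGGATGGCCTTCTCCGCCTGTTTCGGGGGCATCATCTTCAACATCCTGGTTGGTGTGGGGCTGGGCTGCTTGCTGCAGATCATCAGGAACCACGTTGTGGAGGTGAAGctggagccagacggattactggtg

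**Figure D2:**
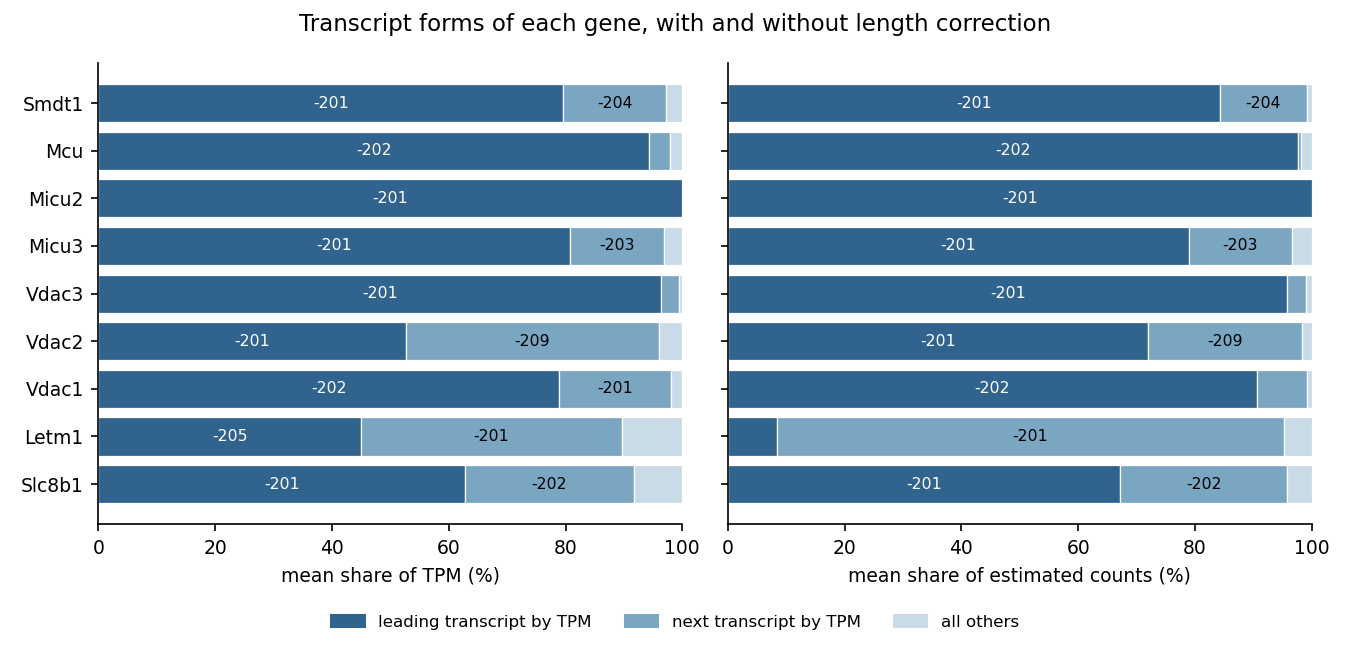
Mean share of each gene's transcripts over 4 libraries, as percent of TPM (left) and percent of estimated counts (right), with the leading transcript by TPM in dark blue, the next in mid blue and all others in pale blue. Letm1-205 takes 45.0% of TPM and 8.36% of counts, and Vdac2-209 takes 43.3% of TPM and 26.35% of counts, whereas Mcu, Micu2, Micu3 and Vdac3 look much alike on both scales.

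When members were summed by role, the outer membrane channels held the most RNA and the gatekeepers the least. Vdac1, Vdac2 and Vdac3 together reached 631, 538, 540 and 494 TPM in libraries 1 to 4, a mean of 551 ± 57.5 TPM (SD, n = 4). Mcu and Smdt1 reached 340, 319, 335 and 323 TPM, a mean of 329 ± 9.86 TPM, nearly all of it Smdt1. Letm1 and Slc8b1 reached 87.3, 85.6, 99.0 and 113 TPM, a mean of 96.3 ± 12.8 TPM. Micu2 and Micu3 reached 53.4, 50.8, 59.0 and 44.9 TPM, a mean of 52.0 ± 5.86 TPM. No role overlapped another.

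Within libraries, the outer membrane sum exceeded the pore sum by 1.67-fold (log2 ratio 0.74 ± 0.12) and the gatekeeper sum by 10.6-fold (3.41 ± 0.16), in 4 of 4 libraries each (SD, n = 4, exact p = 0.125 each). The gatekeeper sum was lower than the pore sum in 4 of 4 libraries (log2 ratio -2.67 ± 0.14, exact p = 0.125), a 6.36-fold difference. The exchange sum was also lower than the pore sum, 3.44-fold, in 4 of 4 (log2 ratio -1.78 ± 0.20, exact p = 0.125), but in CPM its log2 ratio was 0.35. In CPM the ratios to the pore sum were also 1.95 for the outer membrane and -0.80 for the gatekeepers, and that of the outer membrane to the gatekeepers was 2.75. Against single genes in place of sums, the picture for the pore was the reverse, because Micu2, Letm1 and Slc8b1 each exceeded Mcu, and the pore sum follows Smdt1. The exchange sum exceeded the gatekeeper sum by 1.85-fold in 4 of 4 libraries (log2 ratio 0.89 ± 0.30, exact p = 0.125), but this direction did not hold with only the most abundant transcript of each gene, when the log2 ratio was -0.038. Of the 11 gene pairs compared, 9 had 1 direction in all 4 libraries, and those without were the pairs of Vdac2 with Vdac1 and with Vdac3.

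**Figure D3:**
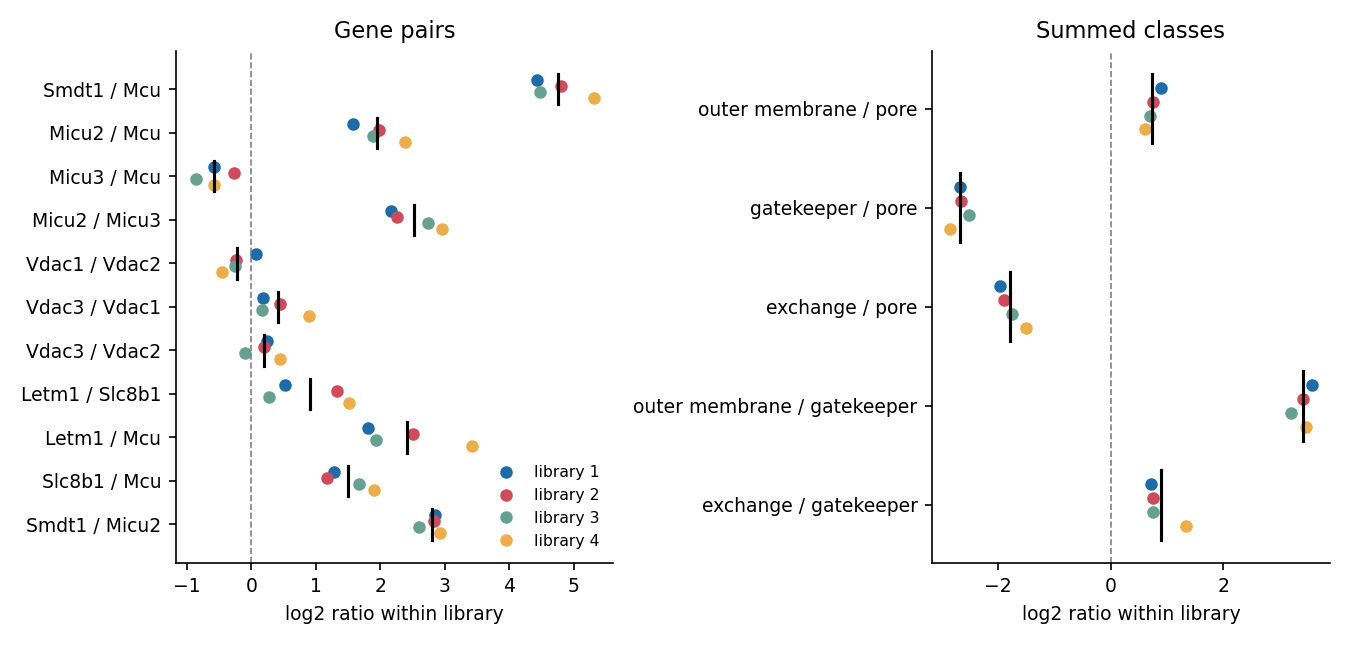
Within-library log2 ratios of TPM for 11 gene pairs (TPM + 1) and 5 pairs of summed roles, with 1 point per library, a bar at the mean and a dashed line at a ratio of 1. Points of Smdt1 over Mcu lie at 4.44 to 5.31 and those of Micu3 over Mcu below 0, and library 4 stands apart in exchange over gatekeeper at 1.34.

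The members also differed in how far their levels spread over the libraries. The SD of log2(TPM + 1) was largest for Mcu at 0.42, Micu3 at 0.40 and Slc8b1 at 0.38, then 0.33 for Vdac1 and 0.31 for Letm1, and between 0.03 and 0.15 for the other 4. Genes of at least 10 TPM had a median SD of 0.25. Spread depends on level, so each gene was set beside genes within 2-fold of its own mean. Of such genes, 91.6% spread less than Vdac1, 78.2% less than Letm1 and 77.7% less than Slc8b1, while Mcu and Micu3 lay nearer the middle, with 62.2% and 48.7%. Vdac2, Vdac3 and Micu2 spread less than most, with 25.2%, 35.8% and 19.7% of like genes below them.

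Libraries 1 and 4 marked the ends for several members. Mcu, Micu3, Vdac1 and Vdac2 were all highest in library 1 and lowest in library 4. For Vdac2 the lead was slight, at 194.6 TPM in library 1 and 194.5 TPM in library 3. Micu2 was also lowest in library 4 but highest in library 3. Letm1 was lowest in library 1 and highest in library 4. Oligodendrocyte markers summed to 2500 TPM in library 1 and 4264 TPM in library 4, against 3567 and 3232 TPM in libraries 2 and 3, and erythroid markers to 59.9 and 2342 TPM at these ends, against 641 and 449 TPM. Neuron markers were highest in library 1 at 1284 TPM and lay at 1039 to 1092 TPM in the others. The part of these cells in the members' values was not tested. Without library 4, the mean log2 level over 1 TPM was 2.74 for Mcu and 2.17 for Micu3, against 2.56 and 1.98 with it.

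Some of the sequence of these genes also occurs in other genes. Of the distinct 31-base words in their transcripts, 17.3% of those of Smdt1 also occur in another gene, all of them in Pheta2, which stood at 0.970 ± 0.86 TPM (SD, n = 4). For Vdac3 the share was 13.4%, mostly in the pseudogene Vdac3-ps1, listed at 0 in 3 libraries and at 0.115 TPM in library 4. Vdac1 and Vdac2 shared 7.72% and 7.44%, most of all with Gm16102 and Gm7832, both listed at 0 in all libraries. For the remaining members the share was at most 2.83%. That of Slc8b1 was 2.38%, most of all with Ftsj3. Unlike the partners above, Ftsj3 was well detected, at 29.25 ± 8.95 TPM (SD, n = 4), near the 33.3 TPM of Slc8b1. The number of reads affected was not counted. The levels of Smdt1, the VDAC genes and Slc8b1 may rest in part on how the authors' tool divided shared reads.

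Most of the genes that surround the uniporter were readily detected. Of 66 such genes in 6 lists, 61 were above 1 TPM and 2 below it by limma, and 54 were higher than Mcu and 6 lower. Over all genes tested, 62.8% were above 1 TPM and 23.2% below, and 37.2% were higher than Mcu and 46.4% lower, and the counts of each list are to be read against these shares. Their median was 68.0 TPM, against 8.34 TPM over all genes tested. In the list of uniporter regulators and relatives, 12 of 14 were above 1 TPM and 10 were higher than Mcu. Its highest genes were Ghitm, an inner membrane protein of the TMBIM family, at 204 ± 25.2 TPM, the calcium-regulated ATP-magnesium carrier Slc25a23 at 146 ± 12.7 TPM and the prohibitin Phb2 at 139 ± 22.6 TPM (SD, n = 4). Its lowest were Slc25a24, a carrier related to Slc25a23, at 2.18 ± 1.82 TPM, and Mcub, the gene of a pore subunit that lowers conductance, at 1.01 ± 0.80 TPM. Mcub had 0.0756, 0.721, 1.95 and 1.29 TPM in libraries 1 to 4, was called neither above nor below 1 TPM, and was called lower than Mcu.

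Genes at contacts of mitochondria with the endoplasmic reticulum, from which calcium is handed to the uniporter, were above 1 TPM in 13 of 14 cases and higher than Mcu in 11. The fission factor Fis1 led with 305 ± 28.4 TPM, followed by the chaperone Hspa9, which links VDAC1 to the IP3 receptor, at 176 ± 17.4 TPM and Bcap31 at 103 ± 17.6 TPM (SD, n = 4). Pdzd8, a tether, had 13.6 ± 1.20 TPM. Among the IP3 receptors, the release channels of the reticulum, Itpr3 was near 0 at 0.0307 ± 0.0285 TPM and the only gene of this list below 1 TPM, while Itpr1 had 26.3 ± 5.40 TPM and Itpr2 21.5 ± 3.66 TPM. Itpr1 and Itpr2 are given outside the naming rule to complete that family. Both were called higher than Mcu, and both lay far below each VDAC gene.

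Of 12 VDAC partners and other outer membrane genes, 10 were above 1 TPM, 1 below and 1 neither, and 10 were higher than Mcu and 2 lower. The death effector Bax had 153 ± 9.31 TPM, the import pore Tomm40 121 ± 8.85 TPM and the survival factor Mcl1 113 ± 18.5 TPM (SD, n = 4). The lowest were Hk2, a hexokinase that docks on VDAC1, at 1.42 ± 0.45 TPM and Bak1, the death effector that VDAC2 binds, at 0.369 ± 0.169 TPM. Bak1 was called below 1 TPM. Vdac2 itself stood at 182 TPM in the same libraries.

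The next lists ranged widely, from 5.56 TPM for Pdp2 to 1110 TPM for Atp5b. All 8 calcium-responsive enzymes and carriers were above 1 TPM, and 6 were higher than Mcu and 1 lower. Pdha1, a subunit of pyruvate dehydrogenase, had 129 ± 16.5 TPM, Ogdh, the 2-oxoglutarate dehydrogenase, 124 ± 12.2 TPM and Idh3a, of isocitrate dehydrogenase, 102 ± 11.3 TPM (SD, n = 4). The lowest were the aspartate-glutamate carrier Slc25a13 at 8.54 ± 1.88 TPM and Pdp2, a pyruvate dehydrogenase phosphatase, at 5.56 ± 0.89 TPM, the one that was called lower than Mcu. All 6 genes linked to the permeability transition and nucleotide exchange were above 1 TPM and 5 were higher than Mcu. Atp5b and Atp5a1 of the ATP synthase had 1110 ± 43.2 and 569.5 ± 40.7 TPM, the nucleotide carrier Slc25a5 503 ± 29.0 TPM, the phosphate carrier Slc25a3 327 ± 21.1 TPM, and Ppif, the gene of cyclophilin D, 17.0 ± 4.10 TPM.

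All 12 nuclear-encoded respiratory and matrix genes were above 1 TPM and higher than Mcu. Cox4i1 of cytochrome oxidase had 1181 ± 97.1 TPM, Cox5a 392 ± 30.2 TPM and Sdha, of succinate dehydrogenase, 282.5 ± 17.9 TPM (SD, n = 4). Even the lowest, Ndufs1 of complex I at 85.2 ± 13.1 TPM and the mitochondrial transcription factor Tfam at 41.6 ± 6.15 TPM, had means above that of Mcu. The medians of the lists ran from 29.1 TPM for the uniporter regulators to 474 TPM for the permeability transition list. Smdt1, the VDAC genes, Letm1 and Micu2 had mean levels within the range of the 12 respiratory and matrix genes, and Slc8b1, Mcu and Micu3 lay below it.

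**Figure D4:**
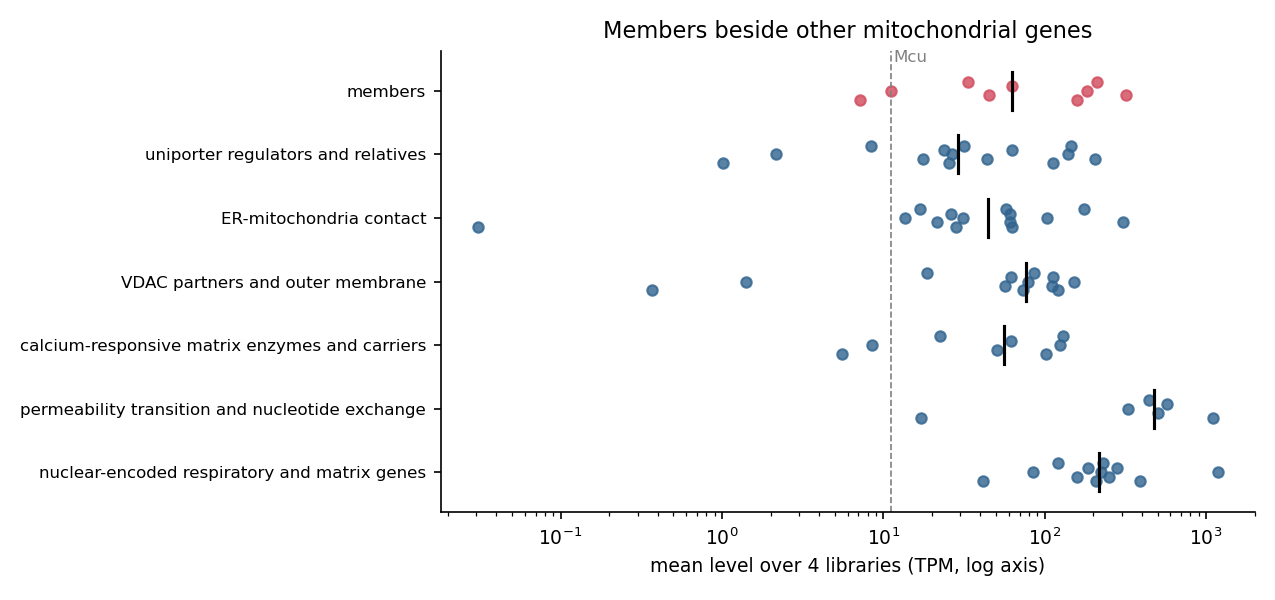
Mean level over 4 libraries in TPM on a log axis, with 1 point per gene for the 9 members (red) and 6 lists of related genes (blue), a bar at each list's median and a dashed line at the level of Mcu. All 12 respiratory and matrix genes lie to the right of the line, and Itpr3, Bak1, Mcub, Hk2 and Slc25a24 lie farthest to its left.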

How the data were processed

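RNA was measured in 4 libraries of 1 group. Per the labels' protocols, cDNA of sorted cells was amplified with a SMART-Seq v4 kit for low input and read in pairs on a HiSeq instrument. The submitters' processing notes name kallisto, sleuth and the build mm10, with versions and index release not given in the sources used here. For each transcript, the deposited files hold an estimated count, a length and a TPM, in which the authors' tool divided shared reads by estimate. Recomputing the authors' TPM from their counts and lengths gave the same values to within 0.132 TPM.

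TPM was summed per gene with GENCODE M21 (GRCm38), which 98294 of 99567 transcripts matched by identifier, 92612 of them with the same version; 1273 were left out. Sequences, gene models and coordinates, counted from 1, are from that release. Levels were tested with limma on log2(TPM + 1) over 19914 genes with a count, against 1 TPM and against Mcu within libraries, two-sided, with Benjamini-Hochberg adjusted p under 0.05. Ratios within libraries had an exact sign-flip test, which cannot go below 0.125. Folds are ratios of TPM + 1, and of summed TPM for roles. Molecular identifiers are not named, so reads are not independent molecules.

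The 9 members were set by gene name, with no threshold on a value, but members and lists were chosen with earlier results of these data known. Named were all 9 members, their transcripts with at least 10% of a gene, and of each list at most the 3 highest and 2 lowest genes by mean TPM; Itpr1, Itpr2, Vdac3-202, and the genes that share sequence with members were named after their values were seen. The alternatives tried were a minimum mean of 5 counts, a pseudocount of 0.1, rescaling over nuclear protein-coding genes, edgeR and DESeq2 scaling, edgeR's quasi-likelihood test, CPM, protein-coding or most abundant transcripts only, a level of 5 TPM, role means and each library left out. Leaving out incomplete transcripts was chosen after seeing the data. A result on 1 gene is not reported here. Depth per library was 16978938 to 23727664 estimated counts. Software was R 4.3.3, limma 3.58.1, edgeR 4.0.16, DESeq2 1.42.0, Python 3.11.15, pandas 2.3.3, numpy 2.4.6 and matplotlib 3.10.9, tested on simulated data.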

Additional observations from a re-analysis of the deposited data

Results flagged for a closer look

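Of 40 sets of 4 library values checked, 1 had a library far from the other 3, where chance alone would mark about 1 in 20. It was the log2 ratio of the exchange sum (Letm1 and Slc8b1) over the gatekeeper sum (Micu2 and Micu3). Library 4 had 1.34, against 0.71, 0.75 and 0.75 in libraries 1 to 3, and the gap to the nearest value took 0.93 of the whole range, above Dixon's critical value for 4 samples. In that library Letm1 was the highest of the 4 and both Micu2 and Micu3 were the lowest. Erythroid markers summed to 2342 TPM there and oligodendrocyte markers to 4264 TPM, both the highest of the 4 libraries, and their part in the ratio was not tested. Without library 4 the mean log2 ratio was 0.74, against 0.89 with it.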

How the results depend on the processing

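The counts of members above 1 TPM and higher than Mcu were 9 and 7 under every scaling, transcript choice and left-out library, except that Micu3 was not called above a level of 5 TPM (0.40, adjusted p = 0.14 by limma). Micu3 was called lower than Mcu with the most abundant transcript (-0.76), in CPM (-0.88) and without incomplete transcripts (-0.79). Several ratios moved. Exchange over gatekeeper had log2 ratios of 0.24 with protein-coding transcripts, -0.038 with the most abundant transcript, 0.39 without incomplete transcripts and 1.27 by means of member log2 values. Exchange over pore had -2.17, -2.42, -2.31 and -0.42 under the same 4 settings and 0.35 in CPM. Gatekeeper over pore had -2.40 with protein-coding transcripts, -2.39 with the most abundant, -0.80 in CPM and -1.69 by member means. Outer membrane over gatekeeper had 3.06 with the most abundant transcript and 2.75 in CPM, and outer membrane over pore had 0.99 with protein-coding transcripts, 1.95 in CPM and 1.57 by member means. Smdt1 had log2 ratios of 2.49 over Mcu and 0.77 over Micu2 in CPM. Among gene pairs, the direction turned for Letm1 over Slc8b1 with protein-coding transcripts (-0.20), for Vdac1 over Vdac2 with the most abundant transcript (0.36) and in CPM (0.084), and for Vdac3 over Vdac1 in CPM (-0.012). CPM is not divided by length, and the other settings drop transcripts or change the sum by construction. Leaving out each library gave 0.74 to 0.95 for exchange over gatekeeper, -1.87 to -1.72 for exchange over pore, -2.72 to -2.61 for gatekeeper over pore, 3.35 to 3.48 for outer membrane over gatekeeper and 0.69 to 0.78 for outer membrane over pore. No paired analysis was possible because the labels give 1 group.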
